A study of Mus musculus with 14 samples.

Results

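The cytosolic ribosome reads mRNA with its small (40S) subunit, which is built from ribosomal RNA and the RPS proteins. The genes described here are the protein-coding Rps genes, chosen by symbol (Rps followed by a number, with the suffixes a, a1, x or l allowed, or Rpsa) so that the S6 kinases (Rps6k genes) stayed out. The rule found 32 genes among the 39017 gene identifiers counted, of which 37693 could be named, and all 32 passed the filter on low counts. Rps4l, which matches the pattern, is annotated as a transcribed pseudogene and was not a member. Fau and Rack1, whose products also sit in the small subunit, carry other names and are described beside the members.

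RNA came from the hippocampus of male mice on a C57BL/6 background that carried a PV-Cre and a Cre-dependent EGFP-L10a allele, and both hippocampi of 1 animal made 1 sample. The mice were between 8 and 12 weeks old when behavioral work began. Translating ribosome affinity purification (TRAP) pulls down the EGFP-tagged ribosomes with their bound mRNA, which comes mainly from parvalbumin (PV) neurons, the fast-spiking inhibitory cells in which PV-Cre is active. L10a is itself a protein of the large ribosomal subunit. There were TRAP libraries of 4 non-defeated, of 4 resilient and of 3 susceptible mice, and total RNA taken ahead of the pull-down from 3 non-defeated samples served as input. Resilient and susceptible mice had gone through 10 days of chronic social defeat stress by CD-1 aggressors and were told apart afterwards by their behavior in a social interaction test, so the 2 groups differ by an outcome and not by a treatment. Non-defeated mice were never attacked. Samples are called below by the number in their name. No number is shared between groups, and no comparison was treated as paired. The labels do not say whether input came from mice that also gave TRAP libraries, and the test of TRAP against input treated all libraries as separate.

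Ribosomal protein mRNAs are among the most abundant in any cell, and their translation is switched as a group. Most begin with a run of pyrimidines at the cap, the 5′ terminal oligopyrimidine (TOP) motif, through which mTORC1 and LARP1 set how many ribosomes load on them. Proteins of the head of the subunit lie around the incoming tRNA and mRNA, and proteins of the body and platform line the decoding site and the exit of the mRNA. Several RPS genes are mutated in Diamond-Blackfan anemia, a failure of red cell formation.

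Windows around annotated transcription starts are shown for the genes the later results turn on, because the TOP motif is the sequence feature these genes are known for. Each holds 30 bases before and 20 bases from the start, 5′ to 3′ on the gene's strand, and was read from RefSeq promoter sequences of GRCm38.p6. Capitals mark a run of at least 5 pyrimidines (C or T, same strand as the gene) that holds the annotated start base.
Rps18: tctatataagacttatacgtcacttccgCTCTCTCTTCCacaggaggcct
Rps24: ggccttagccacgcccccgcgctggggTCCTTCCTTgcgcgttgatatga
Rps15a: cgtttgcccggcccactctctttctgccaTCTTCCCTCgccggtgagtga
Rps6: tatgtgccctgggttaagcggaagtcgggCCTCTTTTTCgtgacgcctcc
Rps27: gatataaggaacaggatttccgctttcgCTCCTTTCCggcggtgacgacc
Rps12: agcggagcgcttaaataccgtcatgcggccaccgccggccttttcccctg
Rps23: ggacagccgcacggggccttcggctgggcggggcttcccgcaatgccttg
Rps25: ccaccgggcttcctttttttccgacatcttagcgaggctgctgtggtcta
The windows lie at chr17:33955646-33955695 for Rps18, chr14:24490648-24490697 for Rps24, chr7:118116128-118116177 for Rps15a, chr4:86857348-86857397 for Rps6, chr3:90213629-90213678 for Rps27, chr10:23787190-23787239 for Rps12, chr13:90923092-90923141 for Rps23 and chr9:44407684-44407733 for Rps25. Rps24, Rps23 and Rps25 lie on the plus strand and the others on the minus strand. A start window was matched for 24 of the 32 members, and 8 of these 24 (33.3%) held such a run at any annotated start, against 11.8% of 27025 genes counted in that way and 10.1% of 32851 single windows. Windows without the run, such as those of Rps12, Rps23 and Rps25, show only that the letters at the annotated start base do not form it.

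Counts per library lay between 64110214 and 94726962, so that counting error was small beside the spread between animals. The members made up 0.317% to 0.354% of all counts in input and 0.359% to 0.505% in TRAP libraries. Pvalb, the gene of PV, ranged from 1208 to 1600 CPM (counts scaled to library size) with TRAP and from 20.02 to 31.9 without it, and the summed level of 7 PV neuron markers was 3140 to 4360 CPM in TRAP against 522 to 621 in input. Markers of other cells remained in TRAP RNA: the summed level of 6 excitatory neuron markers was 515 to 1070 CPM in TRAP against 1790 to 2140 in input. That of 6 endothelial markers was not lower, at 6.97 to 11.9 CPM in non-defeated TRAP libraries against 5.75 to 8.41 in input. Of these 6, 2 rose and 1 fell at an adjusted p under 0.05 (edgeR quasi-likelihood test). In such bulk RNA, fewer cells of a type and less RNA per cell cannot be told apart. Since each sample came from 1 animal, p-values measure the spread between animals handled as 1 sample each.

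Rps genes have many processed pseudogenes, copies of the mRNA in the genome, and reads of a member can be placed on them. In the count table, 95 pseudogenes were named after 20 of the members, and their counts equalled between 29.4% and 32.5% of the members' counts in each library. For Rps19 the named copies held 131% of the gene's own counts, for Rps13 121% and for Rps6 101%. Rps19-ps1 and Rps19-ps2, at separate places on chromosome 14, had the same count in 13 of 14 libraries and differed by 1 in the other, so the levels of members with copies are uncertain. Exons of Rps25 overlap Trappc4 and Ccdc84, those of Rps18 overlap Vps52, those of Rps28 overlap Kank3 and those of Rps27a overlap Clhc1, each on the opposite strand, and whether reads were counted by strand is not given in the sources used here.

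Levels per length differed widely between members. In TRAP RNA of non-defeated mice, Rps29, a zinc-binding protein of the head, had the highest level at 338.2 ± 53.6 CPM per kb of merged exons (SD, n = 4). The lowest were Rps20, of the head, at 14.7 ± 2.25 and Rps15a, of the body, at 9.15 ± 0.905. Both low genes have long annotated transcripts, with 3706 and 5179 bases in the longest coding one against a median of 882.5 over the members. Rps29 kept the highest and Rps20 and Rps15a the lowest places when that length was used. Since that length is also long for Rps20 and Rps15a, it cannot separate their low places from their annotated length. Before division by length, their mean levels of 59.83 and 57.35 CPM were above only those of Rps12 (48.54) and Rps27l (28.97). Members lay on 13 chromosomes, with 9 on chromosome 7.

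The first comparison asked how far the Rps mRNAs were enriched on tagged ribosomes relative to the whole tissue. TRAP RNA held more of most of them. Of the 32 members, 26 rose and none fell at an adjusted p under 0.05 (edgeR quasi-likelihood test), and none was lower at an unadjusted p under 0.05, while 27.4% of all genes tested rose. The median log2 fold change of the members was 0.48, with a range from -0.13 to 1.06, and that of all 21298 genes was -0.041. For 24 members every TRAP library was above every input library, as it was for 29.5% of all genes. With the summed level of blood markers, globin genes and Alas2, as a covariate, 12 of the 32 rose. In that fit 17 had an unadjusted p under 0.05, and the median stayed at 0.48. Blood levels were 780 to 987 CPM in input and 116 to 243 in non-defeated libraries, so the covariate largely follows this comparison. The part of blood RNA in the enrichment was not tested. With an offset for gene length, 25 rose and 2 fell.

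Among proteins of the head, 12 of 14 rose. Rps15, which lies near the decoding site, had 194, 186, 136 and 148 CPM in non-defeated samples 1, 6, 9 and 11 and 82.4, 77 and 79.3 in the input samples. Every TRAP library was far above input, and the log2 fold change of 1.06 ± 0.13 (SE, adjusted p = 6.93e-06) was the highest of the members. Rps16, of the same region, rose by 0.87 ± 0.10 (adjusted p = 6.71e-06). Rps27a, made as a fusion of ubiquitin with the ribosomal protein, rose by 0.72 ± 0.10 (adjusted p = 2.41e-05). Rps19, the gene most often mutated in Diamond-Blackfan anemia, had a log2 fold change of -0.13 ± 0.10 (adjusted p = 0.305), and its libraries overlapped.

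Among proteins of the body and platform, 13 of 17 rose. Rps9, a core protein of the body, had 267, 255, 215 and 233 CPM in non-defeated samples 1, 6, 9 and 11 and 142, 122 and 130 in input. The groups were well apart, with a log2 fold change of 0.88 ± 0.085 (SE) and the smallest adjusted p of the members, 9.23e-07. Rps13, a protein of the platform, rose by 0.98 ± 0.10 (adjusted p = 2.31e-06). Rps6, the protein that S6 kinases phosphorylate, had 270, 271, 241 and 250 CPM against 202, 183 and 186 in input, and rose by 0.44 ± 0.072 (adjusted p = 1.25e-04). Rpsa, also known as a laminin receptor, rose by 0.51 ± 0.083 (adjusted p = 1.34e-04). The members of this region that did not pass were Rps2, Rps3a1, Rps23 and Rps27, with log2 fold changes between -0.089 and 0.20. Rps27 and its paralog Rps27l, which arose by duplication, lay apart. Rps27 had 81.5, 73.8, 57.1 and 62.6 CPM in TRAP and 79.5, 62.6 and 69.0 in input, with complete overlap and a difference of -0.033 ± 0.13 on the log2 scale (adjusted p = 0.850). Rps27l rose by 0.44 ± 0.15 (adjusted p = 0.0239), although its lowest TRAP value, 23.1 CPM in sample 9, equalled the highest of input. The difference between the paralogs was not tested.

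**Figure D1:**
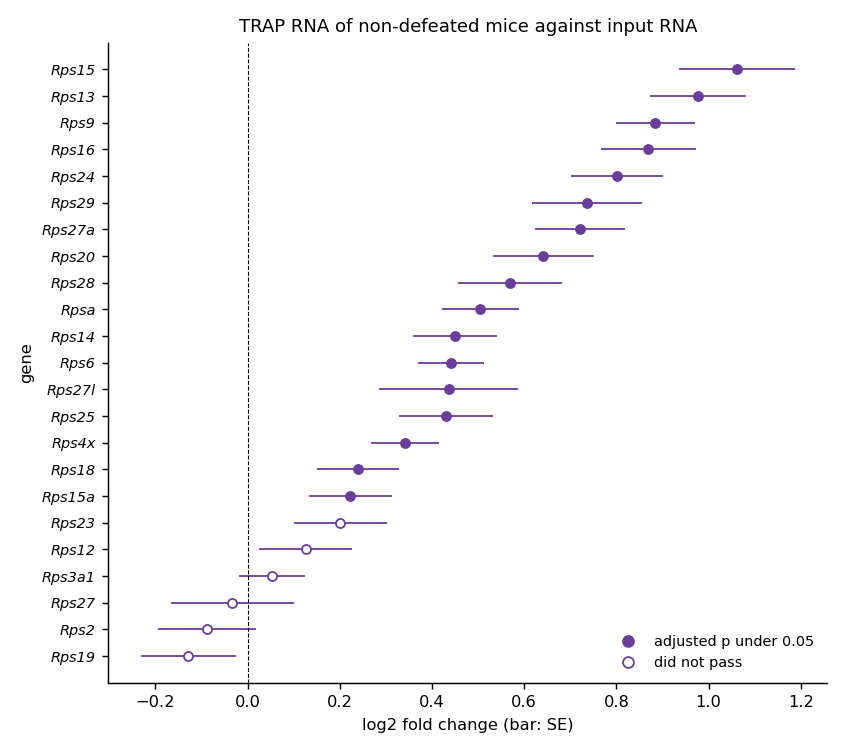
Log2 fold change of 23 of the 32 Rps genes (rows) in TRAP RNA of non-defeated mice (n = 4) against input RNA (n = 3), with the SE as a bar on the horizontal axis. Filled points passed an adjusted p of 0.05. 17 genes are filled and lie right of 0, and the 6 open points lie between -0.13 and 0.20.

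The small subunit proteins with other names were enriched too. Fau, which encodes a ubiquitin-like protein fused to S30, rose by 1.13 ± 0.11 (adjusted p = 1.07e-06), and Rack1, a scaffold on the head, by 0.53 ± 0.082 (adjusted p = 8.33e-05). Of all genes tested, 27.6% fell. Of 52 small subunit assembly factors tested, 19 rose and 8 fell, with a median of -0.026, close to that of all genes. Esf1, a nucleolar factor, rose by 1.48 ± 0.16 (adjusted p = 2.55e-06), and Fbl, the methylase of the box C/D snoRNPs, by 0.83 ± 0.088 (adjusted p = 2.39e-06). Of 14 regulators of TOP mRNAs and mTORC1, 4 rose and 6 fell: Rheb, the GTPase that activates mTORC1, rose by 0.70 ± 0.071 (adjusted p = 1.50e-06) and Larp4b, a La-related protein, had a log2 fold change of -0.48 ± 0.074 (adjusted p = 7.46e-05). Of 10 S6 kinases and relatives, 3 fell and none rose (4 fell and 1 rose at an unadjusted p under 0.05), Rps6ka2 by 0.51 (SE 0.091, adjusted p = 2.65e-04) and Rps6ka6 by 1.32 (SE 0.35, adjusted p = 0.00493).

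The remaining comparisons asked how these mRNAs differed on the tagged ribosomes of mice with different behavioral outcomes. Input was available from non-defeated mice only. In these comparisons the amount of an mRNA and its loading on ribosomes therefore cannot be told apart. The Rps genes moved from library to library as a group. Relative to each gene's mean in non-defeated mice, the median shift over the 32 members was 0.18 and 0.12 on the log2 scale in non-defeated samples 1 and 6 and -0.21 and -0.097 in samples 9 and 11. It was -0.18, -0.25, -0.23 and -0.13 in resilient samples 3, 5, 7 and 8. In susceptible samples 2, 4 and 10 it was 0.23, 0.22 and 0.061. Resilient libraries thus lay low, susceptible ones high, and non-defeated ones spread across both ranges. Sample 1 was the highest of the non-defeated libraries for 28 members and sample 9 the lowest for 30, and sample 10 was the lowest of the susceptible libraries for 28. The median shift of all genes tested lay between -0.004 and 0.015 in every TRAP library.

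**Figure D2:**
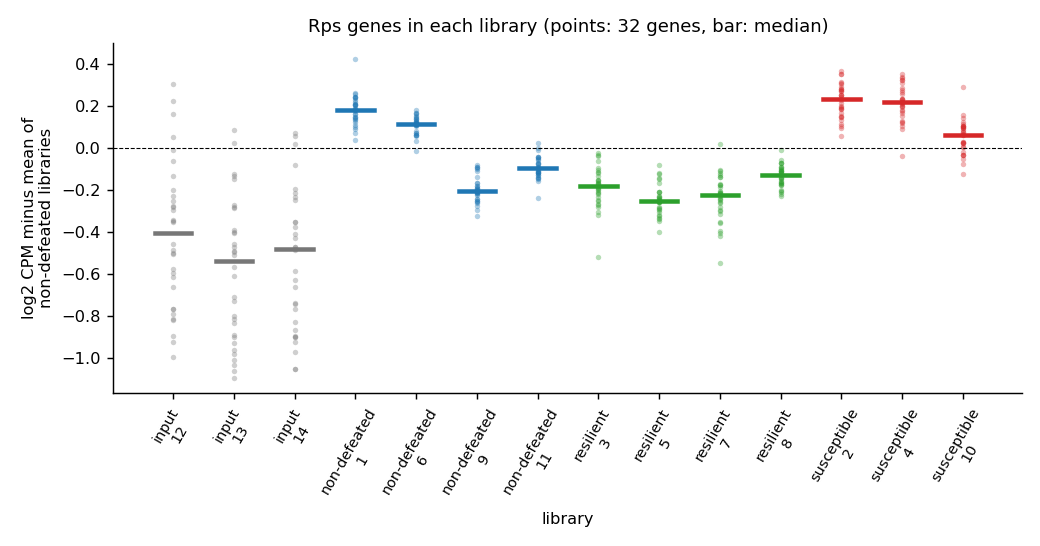
Log2 CPM of each of the 32 Rps genes minus its mean over the non-defeated libraries (vertical axis) in each of the 14 libraries (horizontal axis); points are genes and bars are medians. The resilient medians lie between -0.25 and -0.13, the susceptible ones between 0.061 and 0.23, and the non-defeated ones between -0.21 and 0.18.

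Susceptible and resilient mice differed most. All 32 members were higher in susceptible mice, with a median log2 fold change of 0.36 and a range from 0.20 for Rps9 to 0.53 for Rps27a, against a median of 0.003 over all genes. For each of the 32, every susceptible library was above every resilient one, as held for 7.71% of all genes in that direction. All 32 had an unadjusted p under 0.05, against 10.8% of all genes higher at that threshold, and 7 of them rose at an adjusted p under 0.05 (edgeR quasi-likelihood test), against 1.02% of all genes. These 7 were Rps27a, Rps18, Rps12, Rps24, Rps23, Rps15a and Rps25, and the seventh, Rps25, fell outside the rule for named genes and was chosen after its value was seen. The adjusted p of the other 25 lay between 0.0507 and 0.190.

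Of the 14 head proteins, 4 rose. Rps27a had 205, 204 and 179 CPM in susceptible samples 2, 4 and 10 and 130, 132, 136 and 143 in resilient samples 3, 5, 7 and 8, a log2 fold change of 0.53 ± 0.096 (SE, adjusted p = 0.0267). All susceptible values were well above the resilient ones, and the non-defeated values of 180, 178, 142 and 148 fell between or beside them. Rps18, which touches the tRNA in the head, had 112, 120 and 106 CPM against 84.3, 80.3, 83.1 and 86.7, and rose by 0.43 ± 0.087 (adjusted p = 0.0378). Rps12, of the beak of the head, had 56.0, 60.3 and 50.3 CPM against 40.6, 40.6, 37.7 and 41.2, and rose by 0.47 ± 0.099 (adjusted p = 0.0389). The resilient values of both genes were tightly grouped. Rps25, known for its part in initiation at internal ribosome entry sites, rose by 0.44 ± 0.10 (adjusted p = 0.0460) from 164.3 ± 5.81 CPM (SD, n = 4) to 222.4 ± 27.2 (SD, n = 3), with sample 10 at 191 below the other susceptible values.

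Of the 17 proteins of the body and platform, 3 rose. Rps24, mutated in some families with Diamond-Blackfan anemia, had 136, 128 and 115 CPM in susceptible samples 2, 4 and 10 and 94.1, 87.6, 92.3 and 93.9 in resilient samples, and rose by 0.46 ± 0.098 (adjusted p = 0.0395). Rps23, which lies at the decoding site and bears on its accuracy, had 119, 129 and 113 CPM against 83.4, 85.3, 84.8 and 93.8, and rose by 0.47 ± 0.10 (adjusted p = 0.0395). In both genes the lowest susceptible library was well clear of the highest resilient one. Rps15a had 68.9, 69.2 and 60.6 CPM against 50.8, 47.9, 48.7 and 53.0, and rose by 0.40 ± 0.089 (adjusted p = 0.0416). Of the list of 10 small subunit genes tied to Diamond-Blackfan anemia, 2 rose at the adjusted threshold and all 10 were higher, with a median of 0.40.

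**Figure D3:**
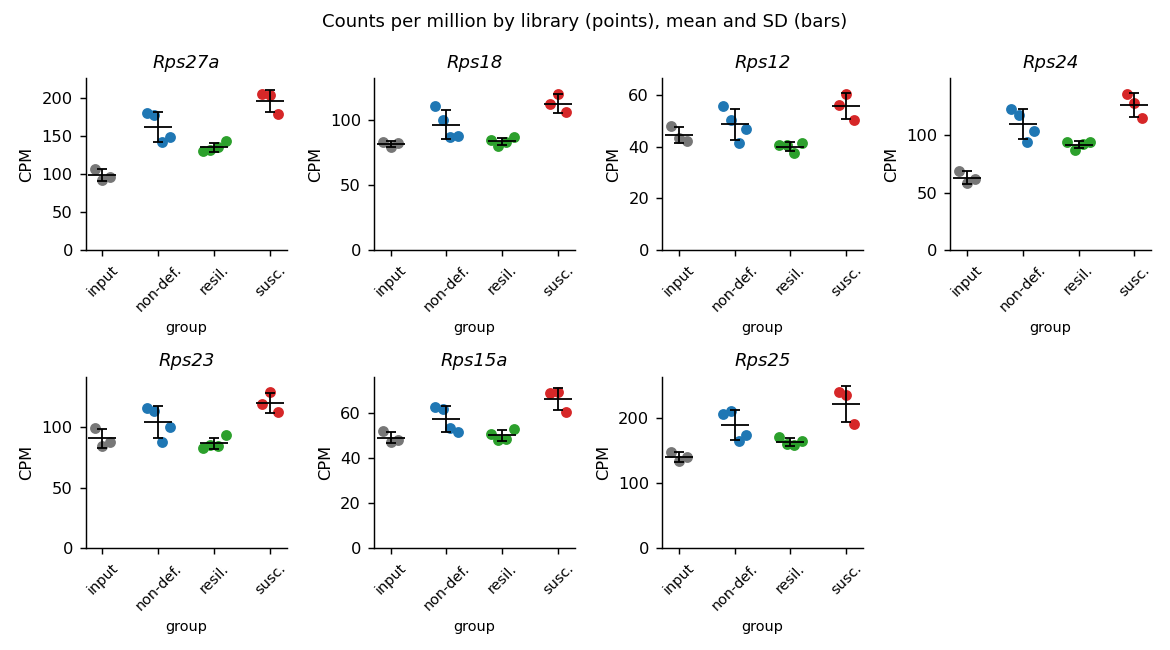
CPM (vertical axis, from 0) of the 7 Rps genes that passed an adjusted p of 0.05 between susceptible and resilient mice, by group; points are libraries, bars are mean and SD. In each gene the 3 susceptible points lie above the 4 resilient points, and the 4 non-defeated points overlap with the range of 1 or both groups.

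Several members of known function did not pass. Rps27 differed by as much as the called genes, 0.52 ± 0.13 on the log2 scale (adjusted p = 0.0586), and its values were 77.3, 75.6 and 72.8 CPM in susceptible against 47.5, 51.6, 46.6 and 63.8 in resilient samples. Its paralog Rps27l had a log2 fold change of 0.45 ± 0.15 (adjusted p = 0.109). Rps4x, the X-linked member, had 0.28 ± 0.073 (adjusted p = 0.0611), and the pseudogene Rps4l had -0.10 ± 0.099 (adjusted p = 0.602). Rps6 and Rpsa were at 0.21 ± 0.071 (adjusted p = 0.115) and 0.21 ± 0.082 (adjusted p = 0.163). Rps29 and Rps20, at opposite ends of the levels per length, were at 0.42 ± 0.12 and 0.42 ± 0.11, with adjusted p of 0.0729 and 0.0586. Across the 32 genes, the log2 fold change was lower for genes with a higher level in non-defeated mice (Pearson r = -0.56, Spearman rho = -0.59, as a description over genes measured in the same libraries). The values were r = -0.26 and rho = -0.36 for the log2 length of the longest coding transcript. There was little relation to GC content (r = -0.12, rho = -0.05).

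**Figure D4:**
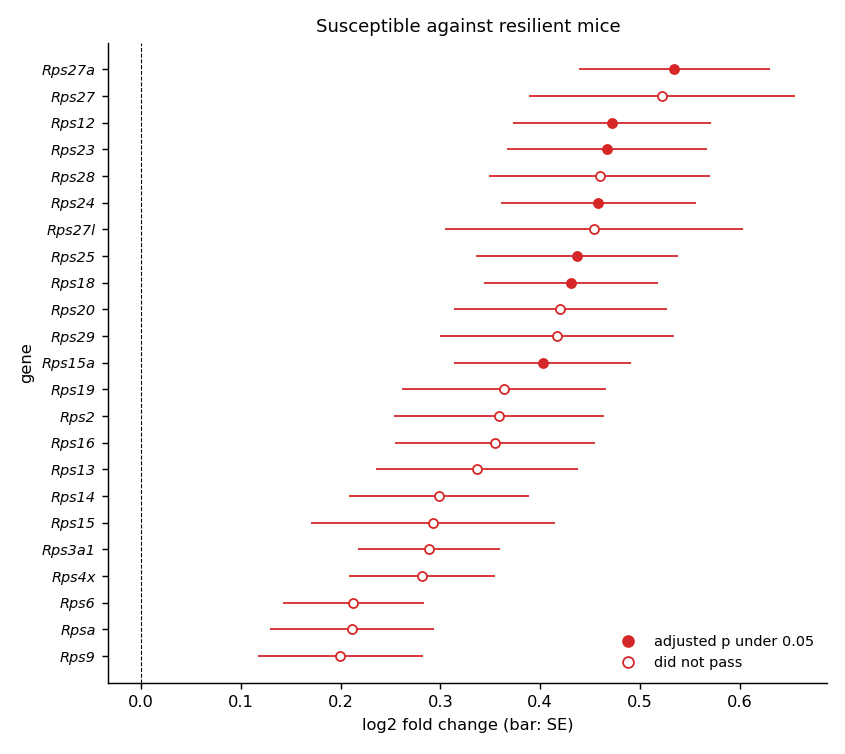
Log2 fold change of 23 of the 32 Rps genes (rows) in susceptible (n = 3) against resilient (n = 4) mice, with the SE as a bar on the horizontal axis. All points lie right of 0, between 0.20 and 0.53, and the 7 filled points passed an adjusted p of 0.05.

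The number of calls rested on single libraries and on the test. DESeq2 called 22 members and the likelihood ratio test 21, while the quasi-likelihood test called none in a fit of the TRAP libraries alone, with 32 at an unadjusted p under 0.05. Without susceptible sample 10, 21 members passed, without resilient sample 5 only 1, and none without resilient samples 3, 7 or 8 or susceptible samples 2 or 4, with 28 to 32 members at an unadjusted p under 0.05 in these fits of the quasi-likelihood test. In every one of the 19 alternative settings run, all 32 members were higher in susceptible mice, and their median log2 fold change stayed between 0.33 and 0.44.

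RNA from blood moved with the groups. The summed level of 5 blood markers (4 globin genes and Alas2, an enzyme of heme synthesis) was 890, 917 and 1240 CPM in susceptible samples 2, 4 and 10 and 239, 599, 129 and 159 in resilient samples 3, 5, 7 and 8. It was 151, 164, 116 and 243 in non-defeated samples 1, 6, 9 and 11 and 780 to 987 in input. Of the 5 markers, 4 rose in susceptible against resilient mice by the quasi-likelihood test, against 1.02% of all genes. The likelihood ratio test called 4 of them and DESeq2 called 2. Susceptible sample 10 and resilient sample 5, with the highest blood levels of their groups, had the lowest median shift of the Rps genes in them. Resilient sample 7, with the lowest blood level of its group, had a shift of -0.226, near the -0.254 of sample 5. In non-defeated mice, sample 9 had both the lowest blood level and the lowest shift, -0.206, against -0.097 in sample 11 with the highest blood level. With the log2 of the summed blood level as a covariate, an alternative chosen after seeing the data, the median difference of the members was 0.44, all 32 were higher, 20 had an unadjusted p under 0.05 and none passed the adjusted threshold of the quasi-likelihood test. Every susceptible library had a higher blood level than every resilient one, so the covariate largely follows this comparison. The fit therefore cannot separate blood level from group, and the part of blood RNA in the difference was not tested. The summed level of 6 excitatory neuron markers was 658 to 1030 CPM in susceptible and 515 to 1070 in resilient mice, with 1 of the 6 called higher. For 6 endothelial markers it reached 32.6 and 35.8, with none called by the quasi-likelihood test, the likelihood ratio test or DESeq2 and none at an unadjusted p under 0.05 in the first. The 7 PV neuron markers ranged from 3140 to 4360 and from 3560 to 4230.

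The numbers in the sample names, whose meaning the labels do not give, were compared as well. Among samples 1 to 6, the median over the members of the difference between susceptible (n = 2) and resilient (n = 2) mice was 0.46 on the log2 scale, and among samples 7 to 11 (1 susceptible, 2 resilient) it was 0.23, with all 32 members higher in both.

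Against non-defeated mice, the stressed groups lay on opposite sides, and these 2 comparisons share their 4 control libraries. In resilient mice all 32 members were lower, with a median log2 fold change of -0.20 and a range from -0.39 to -0.061, against a median of 0.002 over all genes. None passed an adjusted p of 0.05 by the quasi-likelihood test, a likelihood ratio test or DESeq2. At an unadjusted p under 0.05 there were 19, all lower, against 2.16% of all genes, and DESeq2 and the likelihood ratio test gave 14 and 16. That count moved to 5 without non-defeated sample 1, 7 without sample 6 and 29 without sample 9, and to 10 and 11 without resilient samples 5 and 7. For 4 members, Rps12, Rps24, Rps3a1 and Rps18, every resilient library was below every non-defeated one, as for 1.05% of all genes. The groups nearly touched for Rps12, with 41.24 CPM as the highest resilient and 41.52 as the lowest non-defeated value. The same held for Rps24 (94.11 and 94.37) and Rps18 (86.73 and 87.23), and the gap was wider for Rps3a1 (118.3 and 122.2). The member with the smallest p was Rps27, with 47.5, 51.6, 46.6 and 63.8 CPM in resilient samples 3, 5, 7 and 8 against 81.5, 73.8, 57.1 and 62.6 in non-defeated samples 1, 6, 9 and 11. Sample 8 overlapped with the controls, and the log2 fold change was -0.39 ± 0.12 (adjusted p = 1.0). For Rps12, whose groups did not overlap, it was -0.28 ± 0.093 (adjusted p = 1.0). Rps6 had the smallest difference, -0.061 ± 0.066.

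In susceptible mice all 32 members were higher than in non-defeated mice, with a median log2 fold change of 0.16 and a range from 0.061 to 0.28, against a median of 0.010 over all genes. None passed an adjusted p of 0.05 by the quasi-likelihood test, the likelihood ratio test or DESeq2, and 5 had an unadjusted p under 0.05, against 6.61% of all genes higher at that threshold, with 4 and 1 by the other tests. The count of 5 moved to 19 without non-defeated sample 1, 9 without sample 6 and 1 without samples 9 or 11, and to 16, 2 and 1 without susceptible samples 10, 2 and 4. For 2 members, Rps6 and Rps3a1, every susceptible library was above every non-defeated one, as for 4.21% of all genes. Rps27a had the smallest p and differed by 0.28 ± 0.096 on the log2 scale (adjusted p = 0.258), followed by Rps18 with 0.22 ± 0.088 (adjusted p = 0.311). For both genes, non-defeated sample 1 reached into the range of the susceptible samples. All 5 blood markers were above the non-defeated range in susceptible mice. The quasi-likelihood test called 2 of them higher, while it called 3 of all 21298 genes tested higher. The likelihood ratio test called 5 of the blood markers and DESeq2 4. The 6 endothelial markers were higher than in non-defeated mice in both stressed groups, with a median log2 fold change of 0.90 in susceptible and 0.99 in resilient mice. Their summed level reached 11.9 CPM in non-defeated, 35.8 in resilient and 32.6 in susceptible libraries, with medians of 10.9, 17.9 and 27.1. The quasi-likelihood test called none of them in either group, with 2 at an unadjusted p under 0.05 in each, and the likelihood ratio test and DESeq2 each called 2 in susceptible and none in resilient mice. The part of these cells in the Rps values was not tested.

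**Figure D5:**
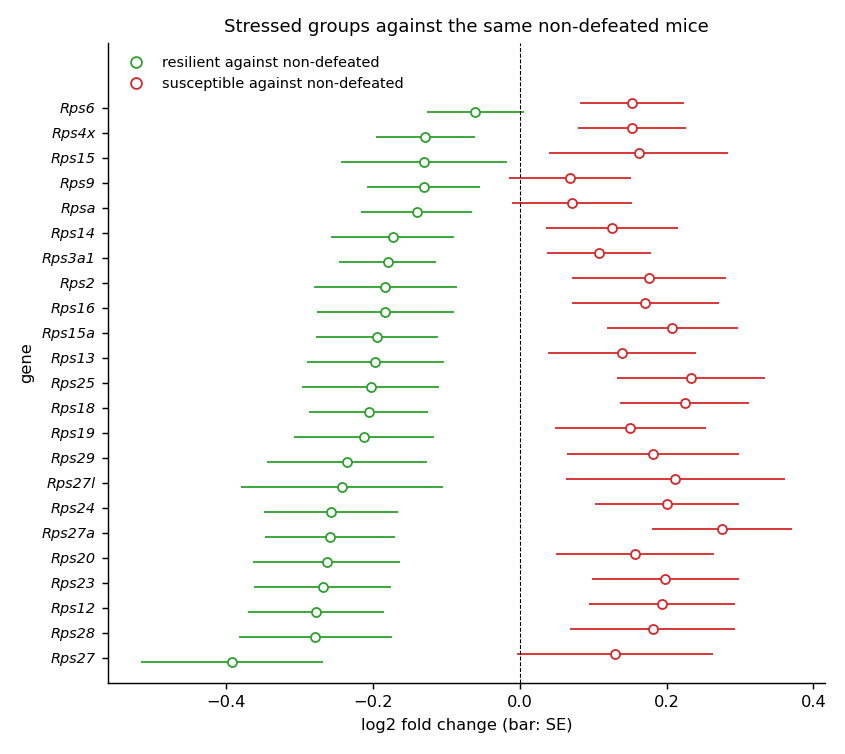
Log2 fold change of 23 of the 32 Rps genes (rows) in resilient (n = 4) and in susceptible (n = 3) mice against the same 4 non-defeated mice, with the SE as a bar on the horizontal axis. Resilient points lie left of 0 and susceptible points right of it, and none passed an adjusted p of 0.05.

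The difference between resilient and non-defeated mice varied with the sample numbers. Its median over the members was -0.36 among samples 1 to 6 and -0.036 among samples 7 to 11, each with 2 mice a group, and 4 members were higher in the second set. For susceptible against non-defeated mice the medians were 0.084 and 0.20, with 27 and 31 members higher. Leaving out single libraries kept the median of the resilient comparison between -0.26 and -0.14 and that of the susceptible one between 0.10 and 0.24.

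Of the genes around the small subunit, the quasi-likelihood test called 1 between TRAP groups. Fau and Rack1 had log2 fold changes of 0.22 ± 0.11 (adjusted p = 0.265) and 0.15 ± 0.081 (adjusted p = 0.315) in susceptible against resilient mice. Of all 21298 genes tested there, 2309 were higher and 2152 lower at an unadjusted p under 0.05 (quasi-likelihood test). At the adjusted threshold, 217 rose and 186 fell. Of the 52 assembly factors none passed the adjusted threshold (quasi-likelihood test), with 5 higher and 6 lower at an unadjusted p under 0.05 and a median of -0.12, and DESeq2 and the likelihood ratio test each called 1 lower. Of the 14 TOP and mTORC1 regulators none passed, with 1 higher at an unadjusted p under 0.05, none by either other test and a median of 0.008. Of the 10 S6 kinases and relatives, 1 fell and 4 were lower at an unadjusted p under 0.05, and DESeq2 and the likelihood ratio test each called 2 lower. The gene called by the quasi-likelihood test was Rps6ka1, which encodes the kinase RSK1, at -0.63 ± 0.14 on the log2 scale (adjusted p = 0.0416), and each susceptible library lay below each resilient one.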

How the data were processed

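TRAP and input libraries were made by the authors from 1 ng of RNA and sequenced as single reads. They trimmed the reads with fastp and aligned them to mm10 with STAR, given as version 2.5.3a in the submitters' processing notes and as another version in the paper's methods. The notes also name HTSeq. Counting options, annotation and strand setting are not given in the sources used here. The deposited values are raw counts per gene, whole numbers without normalization, and all 14 columns were matched to samples by label.

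Names, lengths and GC content came from GENCODE (mouse release 21). Identifiers without a name held 0.824% of the counts. The test was edgeR 4.0.16 in R 4.3.3 (TMM, default filter on low counts, 21298 genes kept, 1 quasi-likelihood model of all 14 libraries, 2-sided tests, Benjamini-Hochberg adjustment over all genes tested). CPM were scaled by TMM, and shifts per library used log2 CPM with a prior count of 2. SEs were taken from the fold change and its F statistic. No library was a copy of another of its group (chi-square over genes per degree of freedom of at least 13.2). The code was tested on simulated data whose changed genes were known.

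The members and the other gene lists were chosen with earlier results of these data known. Named in each comparison were up to 6 members with the smallest p in each direction that passed the adjusted threshold of 0.05, or otherwise the 2 with the smallest p in that direction, together with Rps4x, Rps27, Rps27l, Rps6, Rps27a, Rpsa and the 2 members with the highest and the 2 with the lowest level per length. Of the other lists, up to 2 genes that passed were named. Some genes that met the rule are not reported here. Other settings tried were DESeq2 1.42.0 for each pair of groups, the likelihood ratio test of edgeR, size factors by RLE, no filter or at least 10 counts in every library, fewer groups in the fit, the number in the sample name as a covariate, offsets for gene length and GC content, another gene length and each library left out. Counts summed with pseudogenes and a covariate for blood markers were added after seeing the data. Columns of the authors' own comparisons were not used.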

Additional observations from a re-analysis of the deposited data

Results flagged for a closer look

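Of 64 groups of 4 samples tested for a value far from the others (32 Rps genes in non-defeated and in resilient mice), 1 stood out, and chance alone gives about 1 in 20. Rps3a1, of the body of the small subunit, had 122 CPM in non-defeated sample 9 against 134, 133 and 132 in samples 1, 6 and 11. The gap to the nearest value was 0.885 of the whole range of the group, above Dixon's 95% critical value. Sample 9 was also the lowest non-defeated library for 30 of the 32 members.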

How the results depend on the processing

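Without any change of direction in the medians, the number of Rps genes called moved with the settings. Between susceptible and resilient mice, where 7 were called, the likelihood ratio test called 21, DESeq2 and the sample number as covariate 22 each, and a filter of at least 10 counts 14. RLE size factors called 6, a length offset 10, a GC offset 4, no filter on low counts 1 and counts summed with pseudogenes 5. None was called with only the TRAP libraries, only the groups compared or the blood covariate, with 32, 31 and 20 at an unadjusted p under 0.05. Leaving out 1 library gave from 0 to 21. Of the called genes, Rps27a passed in 11 of 19 settings and Rps15a and Rps25 in 7 each. Between TRAP and input, 12 were called with the blood covariate against 26 without it, and the other settings gave 23 to 27. The median log2 fold change was 0.477 both with and without that covariate. A length offset reversed Rps19 to 0.10 and moved Rps27 to -0.314, a called fall (adjusted p = 0.0326). Leaving out non-defeated sample 9 or 11 or input sample 12 turned the log2 fold change of Rps27 positive, and over all single omissions it lay between -0.125 and 0.063. The median level per length moved from 68.7 to 141 CPM per kb with the longest coding transcript. No paired analysis was possible because the groups share no sample numbers. The cause of these changes was not tested.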
